A study of Mus musculus with 8 samples.

Results

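The small leucine-rich proteoglycans examined here were *Dcn*, *Bgn*, *Aspn*, *Lum*, *Fmod*, *Kera*, *Prelp*, *Omd*, *Ogn* and *Epyc*, chosen by symbol as a gene family and making up 10 of the 28001 identifiers in the deposited tables. Their UMIs (unique molecular identifiers, each marking 1 captured transcript) were followed across 8 droplet libraries of mouse forelimb cells. Of these, 6 held sorted tdTomato+ cells taken on embryonic day 11.5 (E11.5) and at 12.5, 13.5 and 14.5 and, at E16.5, separately from a proximal segment (distal stylopod, elbow and proximal zeugopod) and a distal segment (distal zeugopod and autopod). The other 2, called whole 1 and whole 2, held lineage-negative cells of whole E11.5 limbs, labelled as both tdTomato+ and tdTomato-. All embryos were C57BL/6J with the genotype Hic1CreERT2/CreERT2; Rosa26LSLtdTomato/tdTomato, and dams received 7.5 mg of tamoxifen at E10. CreERT2 stands at the *Hic1* locus, so tdTomato marks cells that had *Hic1* promoter activity in the hours after tamoxifen, together with their progeny. There was no group without the CreERT2 allele or without tamoxifen. Forelimbs of several embryos were pooled before sorting, and each sorted stage or segment was 1 library, so differences between sorted libraries have no replicate check and carry no test. The v2 reagent kit served for the stages until E13.5 and the v3 kit afterwards, and limbs were dissociated with other enzymes from E13.5 on than before.

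Small leucine-rich proteoglycans are secreted matrix proteins whose core is an arc of leucine-rich repeats. They bind fibrillar collagens, steer the diameter and spacing of fibrils in skin, tendon, cartilage, bone and cornea, and many of them also bind growth factors such as TGF-β. Class I holds decorin (*Dcn*) and biglycan (*Bgn*), whose cores carry chondroitin or dermatan sulfate chains, and asporin (*Aspn*), which usually carries none. Class II holds lumican (*Lum*), fibromodulin (*Fmod*), keratocan (*Kera*), prolargin (*Prelp*) and osteomodulin (*Omd*), several of which carry keratan sulfate. Class III holds osteoglycin (*Ogn*) and epiphycan (*Epyc*), the latter known from growth cartilage.

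Most members lie side by side in the genome. In GRCm38 (the build of the deposited tables, there named mm10; gene models of GENCODE vM21), *Dcn* spans chr10:97479609-97518143, *Lum* chr10:97565128-97572703, *Kera* chr10:97606879-97613692 and *Epyc* chr10:97644068-97682454, all on the plus strand. No other protein-coding gene lies between neighbours of this row, and the gaps are 46984, 34175 and 30375 bases. A second row on chromosome 13 holds *Aspn* (chr13:49544443-49567565), *Omd* (chr13:49582462-49592822) and *Ogn* (chr13:49608046-49624501), on the plus strand and inside the antisense gene *Cenpp*. *Prelp* (chr1:133910304-133921414, minus strand) and *Fmod* (chr1:134037254-134048277, plus strand) are 115839 bases apart, with no protein-coding gene between them. *Bgn* stands alone on the X chromosome (chrX:73483602-73495933). Counting strand was not given in the sources used here, so a contribution of *Cenpp* to *Aspn*, *Omd* or *Ogn* was not tested.

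RefSeq promoter windows (GRCm38.p6) matched 8 of the 10 members. *Dcn* and *Lum* were not among them. The bases upstream of the start site, cut where a GENCODE exon begins, are shown for the neighbours on chromosome 1 that had the same highest cell class in the E16.5 proximal library (*Fmod* and *Prelp*), the neighbours on chromosome 13 that peaked in the same cluster there (*Aspn* and *Omd*), and *Epyc*, the member with the sharpest class pattern. Capitals mark ACAAAG and ACAATG (letters of the SOX core), TGTGGT (RUNX core) and TATAAA, on either strand.
Fmod, chr1:134037004-134037253, plus strand: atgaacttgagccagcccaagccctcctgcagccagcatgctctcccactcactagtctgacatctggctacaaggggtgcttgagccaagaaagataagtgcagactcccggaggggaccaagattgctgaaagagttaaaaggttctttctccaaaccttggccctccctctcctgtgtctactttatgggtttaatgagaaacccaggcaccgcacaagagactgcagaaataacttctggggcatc
Prelp, chr1:133921415-133921651, minus strand: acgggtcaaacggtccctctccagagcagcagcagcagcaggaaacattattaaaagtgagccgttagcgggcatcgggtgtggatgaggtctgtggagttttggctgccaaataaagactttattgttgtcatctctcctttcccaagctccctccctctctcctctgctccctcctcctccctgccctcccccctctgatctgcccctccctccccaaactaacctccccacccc
Aspn, chr13:49544193-49544442, plus strand: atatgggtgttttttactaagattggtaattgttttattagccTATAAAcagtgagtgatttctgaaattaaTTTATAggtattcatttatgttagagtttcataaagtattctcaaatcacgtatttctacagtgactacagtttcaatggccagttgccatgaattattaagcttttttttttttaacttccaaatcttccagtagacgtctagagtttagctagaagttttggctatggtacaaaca
Omd, chr13:49582212-49582461, plus strand: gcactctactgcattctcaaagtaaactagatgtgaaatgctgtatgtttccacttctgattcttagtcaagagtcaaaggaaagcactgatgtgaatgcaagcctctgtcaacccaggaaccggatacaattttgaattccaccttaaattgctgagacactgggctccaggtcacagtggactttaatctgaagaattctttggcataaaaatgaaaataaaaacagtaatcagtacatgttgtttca
Epyc, the first of its windows, chr10:97643818-97644067, plus strand: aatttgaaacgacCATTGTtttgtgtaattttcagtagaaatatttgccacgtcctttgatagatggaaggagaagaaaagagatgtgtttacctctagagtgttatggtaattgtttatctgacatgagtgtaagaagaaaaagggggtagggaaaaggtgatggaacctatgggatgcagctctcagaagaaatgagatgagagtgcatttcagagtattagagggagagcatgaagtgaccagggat
Epyc, the second of its windows, chr10:97646853-97647088, plus strand: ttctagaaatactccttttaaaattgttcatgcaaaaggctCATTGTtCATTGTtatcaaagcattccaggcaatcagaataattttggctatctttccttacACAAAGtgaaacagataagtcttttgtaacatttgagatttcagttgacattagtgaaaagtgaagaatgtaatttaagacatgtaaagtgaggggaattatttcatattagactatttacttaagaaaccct
Among all 32851 windows of 250 bases, 16.5% held ACAAAG, 10.7% ACAATG, 14% TGTGGT and 12.4% TATAAA. Of the *Epyc* windows, the one at the start of the gene model held ACAATG 1 time and no ACAAAG, and the one further inside held ACAAAG 1 time and ACAATG 2 times, and the *Aspn* window held TATAAA 2 times. The *Fmod*, *Prelp* and *Omd* windows held none of these letters, which says nothing about the factors themselves.

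Of 57469 barcodes, 53085 with at least 3000 UMIs and at most 10% mitochondrial UMIs were kept, 3165 to 11109 per library, with 31500092 to 234893903 UMIs summed and median depths of 6788 to 18473 UMIs per cell. At most 48 barcodes were shared by any pair of libraries. *Hic1* was at 23.7 CPM (UMIs per 1000000) in the sorted E11.5 library and at 0.702 and 0.741 in whole 1 and whole 2, where tdTomato, at 3.88 and 4.21, was also far below its sorted level of 454. Clusters carry the ending "-like" because they were rebuilt here from marker genes, without the members. Sums of UMIs are given with exact Poisson 95% intervals, ratios with exact conditional (Clopper-Pearson) 95% intervals and shares with exact binomial ones, all of which cover counting error only.

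At E11.5, 7 of the 10 members were higher in the sorted tdTomato+ mesenchyme than in whole limb mesenchyme, and *Bgn* was level. *Fmod*, which in tendon and cartilage binds collagen and regulates its cross-linking, stood at 7.92 CPM in the sorted library against 0.300 and 0.212 in whole 1 and whole 2, and *Ogn* at 20.0 against 1.52 and 1.55. The sorted values lie above both whole limb values for each of the 7. In edgeR's quasi-likelihood test (3156 sorted cells against 5081 and 5331, Benjamini-Hochberg adjustment over 15063 genes, two-sided) *Fmod* had a log2 fold change of 4.76 (SE 0.27, adjusted p = 8.61e-69). *Ogn* had 3.52 (SE 0.17), *Epyc* 3.87 (SE 0.26), *Dcn* 3.78 (SE 0.13), *Kera* 3.0 (SE 0.15), *Aspn* 2.94 (SE 0.43) and *Lum* 1.68 (SE 0.10), with adjusted p between 8.27e-177 and 1.14e-10 in that test. The median over the 10 members was 2.97 against 0.01 over all genes tested. The same test called 53.3% of all genes, 26.8% higher and 26.6% lower in the sorted cells, and rests on the spread between only 2 whole limb libraries, which may be technical, with the single sorted library assumed to vary like them, so the p-values do not measure spread between litters. Cell-type markers moved with the comparison. Summed over all cells, the 8 distal limb bud markers were at 104 CPM in the sorted library against 1232 and 1103.5 in whole 1 and whole 2, the 8 tenocyte markers at 231 against 55.7 and 54.2 and the 8 fibrogenic progenitor markers at 806 against 255 and 244, and their part in the result was not tested. With limma-voom the 7 adjusted p-values rose to as much as 0.029.

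*Bgn*, the decorin paralogue, was at 15.2 CPM in the sorted library, 15.5 in whole 1 and 13.5 in whole 2. The sorted value lies between the whole limb values. Its log2 fold change was -0.11 (SE 0.14, adjusted p = 0.526 by edgeR, 0.236 to 0.711 over the alternatives). *Omd* and *Prelp* were close to the detection floor, with 3 and 10 UMIs in the sorted library, 9 and 27 in whole 1 and 14 and 21 in whole 2, and edgeR adjusted p-values of 0.137 and 0.170, so a difference was not detectable at this depth.

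**Figure D1:**
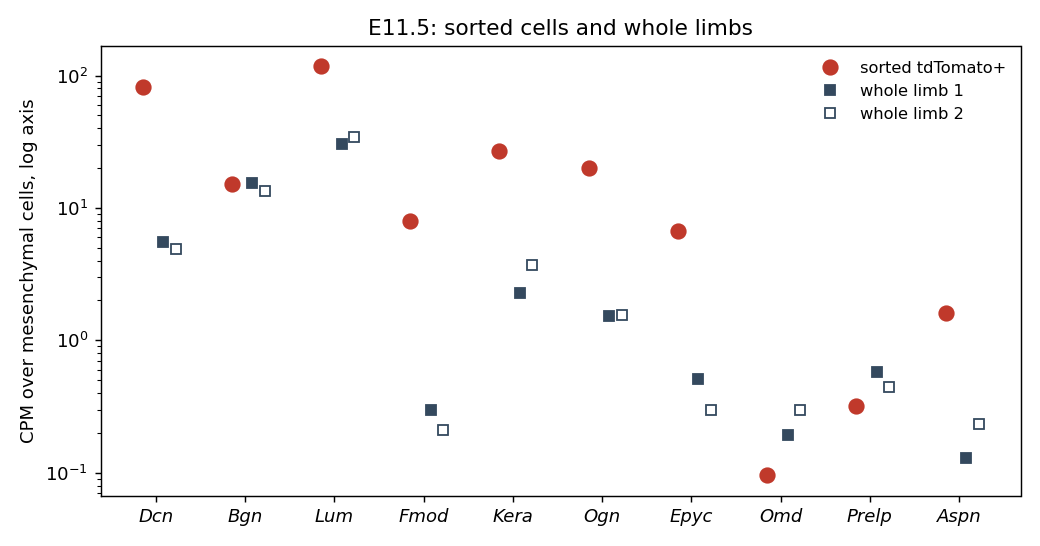
CPM (log axis) of each member summed over mesenchymal cells of the sorted E11.5 library (circles) and of whole 1 and whole 2 (filled and open squares). The circle stands above both squares for 7 members, from *Lum* at 117 against 30.6 and 34.1 to *Fmod* at 7.92 against 0.300 and 0.212, and level with them for *Bgn*.

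Within the whole limbs *Lum* and *Dcn* were concentrated in a few clusters. *Lum*, a class II keratan sulfate carrier, reached 98.4 CPM in whole 1 and 112 in whole 2 in the cluster led by *Dkk1*, *5033428I22Rik* and *Tbx2*, and 91.5 and 88.2 in the cluster led by *Sostdc1*, *Slitrk6* and *Itm2a*. In the distal limb bud-like cells it was at 5.38 and 6.19. *Dcn* showed the same contrast, with 14.2 and 13.97 CPM in the first cluster, 16.3 and 17.4 in the second and 1.85 and 0.884 in the distal limb bud-like cells. *Bgn* was spread otherwise. It reached 48.4 and 60.0 CPM in endothelial-like cells (72 and 59 cells), where *Dcn* had no UMI in either library, although the sort against CD31 was meant to remove endothelial cells, and only 1.75 and 4.50 in myogenic-like cells.

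Across the sorted time course all 10 members were higher at the end than at the start, and the summed level of the family went from 276 CPM at E11.5 through 824, 1382 and 2499 on the next 3 days sampled to 4777 in the E16.5 proximal library. From E11.5 to E16.5 proximal, 10 of 10 members were at least 2-fold higher (ratio of CPM + 1), where 12.9% of genes at 10 CPM or more were, and 41.6% passed in either direction. *Omd*, at 7.32 CPM in the E16.5 proximal library, was the only member under that minimum of 10 CPM. The members' median log2 ratio was 4.10 against -0.50 over the genes that met it. The make-up of the family changed as well. *Lum* gave 42.2% of the members' UMIs at E11.5 and 17.8% in the E16.5 proximal library, while *Dcn* went from 29.4% to 44.2% and *Aspn* from 0.574% to 11.7%. Over the same course the summed level of the 10 fibroblast markers went from 24.8 to 1271 CPM, that of the 10 chondrocyte markers from 687 to 4499, that of the 11 epithelial markers from 55.2 to 6675 and that of the 8 early mesenchymal progenitor markers from 7670 to 943. Their part in the change was not tested. In sums over a library, more cells of a type and more RNA per cell cannot be told apart. Earlier libraries came from undivided forelimbs and the last from the proximal segment only, so stage and region change together in the last step.

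The class I genes were higher at each stage than at the one before. Through the 5 libraries of the time course, in order, *Dcn* was at 81.1, 249, 535, 880 and 2110 CPM, a ratio of 26.0 over the whole course (25.01 to 27.04). *Bgn* was at 15.2, 32.6, 85.6, 307 and 516 CPM, a ratio of 34.0 (31.1 to 37.3). *Aspn*, which competes with decorin for collagen, was at 1.59, 8.19, 26.2, 173 and 557 CPM. Its ratio of 351 (266 to 473) was the highest of the family, and its steepest step, 6.60-fold (6.23 to 7.00), fell between E13.5 and E14.5, where the reagent kit also changed.

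The class II genes did not move together. *Lum* was at 117, 330, 359, 573 and 849 CPM, nearly level between E12.5 and E13.5 (1.09-fold, 1.06 to 1.11). *Fmod* was at 7.87, 21.8, 60.8, 46.8 and 83.2 CPM. *Kera*, the keratocan gene first known from corneal stroma, was at 26.98, 88.1, 173, 130 and 60.9 CPM, highest at E13.5 and lower in each later library. The E16.5 distal library, outside this course, was at 120 CPM, close to the 130 of E14.5. *Kera* was the only member past a ratio of 2 downward in any single step, 2.14-fold lower (2.10 to 2.19) from E14.5 to E16.5 proximal. Outside epithelial-like clusters and at 3000 UMIs per cell the fall was smaller, -0.89 and -0.63 on the log2 scale of CPM + 1. *Prelp*, whose basic end binds heparan sulfate, was at 0.317, 1.13, 5.24, 3.47 and 25.1 CPM. *Omd*, named for its place in mineralized tissue, was lowest at every stage, at 0.0952, 0.271, 1.59, 2.86 and 7.32 CPM, the first of these from 3 UMIs, and its overall ratio of 76.9 has a wide interval (26.3 to 373).

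Of the class III genes, *Ogn* was at 19.9, 83.8, 123, 371 and 454 CPM, with its largest step between E11.5 and E12.5 (4.21-fold, 3.87 to 4.59). *Epyc* behaved differently. It stayed between 6.70 and 13.2 CPM from E11.5 to E14.5 and was at 114 CPM in the E16.5 proximal library, 9.68-fold (9.20 to 10.2) above E14.5. That step was smaller without epithelial- and chondrocyte-like cells, 1.37 on the log2 scale against 3.17. In the E16.5 distal library *Epyc* was at 10.5 CPM, below the 11.7 of E14.5 and less than 2-fold above E11.5. Its rise at E16.5 was thus seen in the proximal segment only.

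**Figure D2:**
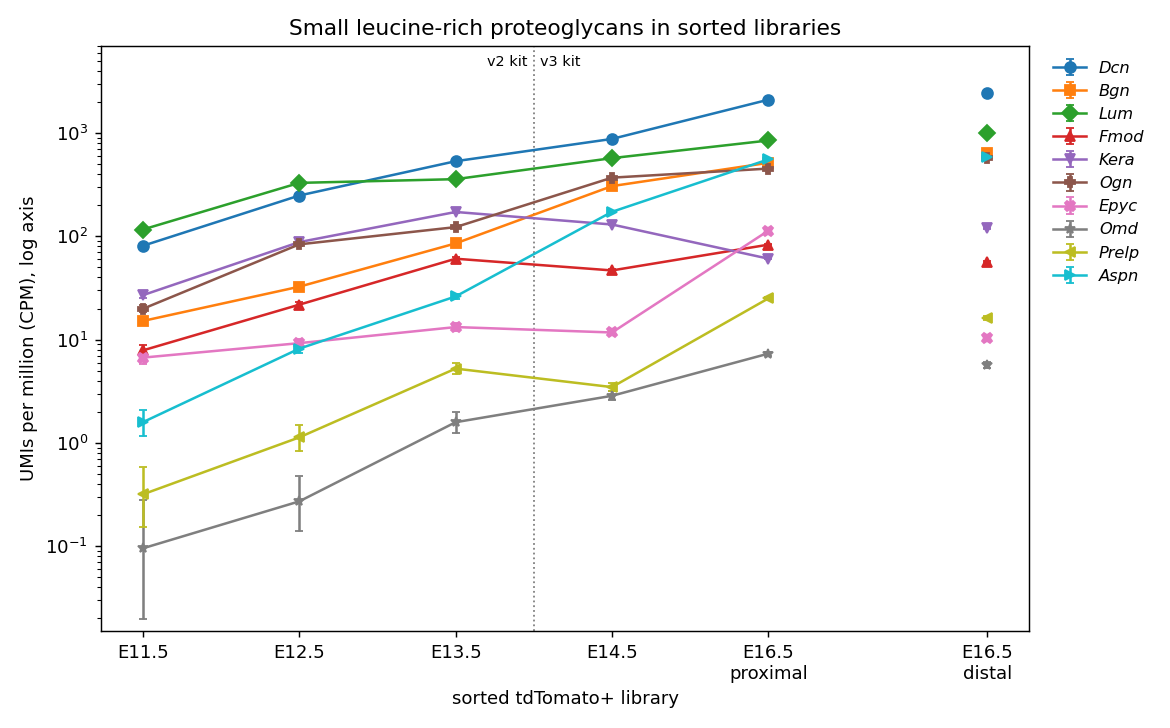
CPM (log axis) of each member over all kept cells of each sorted library, with Poisson 95% intervals as bars. Lines join the 5 libraries of the time course, the E16.5 distal library stands apart on the right, and the dotted line marks the change of reagent kit. *Kera* peaks at 173 CPM at E13.5, *Epyc* leaves its range of 6.70 to 13.2 CPM only in the E16.5 proximal library at 114, and *Aspn* climbs from 1.59 to 557.

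Step by step, 7 of 10 members were at least 2-fold higher from E11.5 to E12.5, against 2.05% of genes higher and 2.96% in either direction. From E12.5 to E13.5 it was 6 members, against 1.38% and 3.05% of genes, and from E13.5 to E14.5 it was 3, *Bgn*, *Ogn* and *Aspn*, against 4.23% and 9.09%. From E14.5 to E16.5 proximal 5 members were higher and *Kera* lower, against 6.61% of genes higher, 5.91% lower and 12.5% in either direction. Not all members passed the minimum of 10 CPM that the background genes met, with 6, 8, 8 and 9 of them doing so in these 4 steps. The TMM factors correspond to a rise of the log2 ratios by up to 0.19 from E13.5 to E14.5, 0.21 from E14.5 to E16.5 proximal and 0.43 over the whole course, less for members near 1 CPM. Under them *Epyc* turned from -0.16 to 0.01 in the first of these. From E14.5 to E16.5 proximal *Kera* then went from -1.09 to -0.88 and *Fmod* from 0.82 to 1.02, so that 6 members were higher by a ratio of 2 and none lower. Outside epithelial-like clusters *Kera* and *Fmod* changed side in the same way, with *Fmod* at 1.02.

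The number of members in a single cell grew too. With every cell thinned to 3000 UMIs, a UMI of at least 1 member was found in 40.4%, 62.3%, 74.5%, 90.3% and 94.8% of the cells of the 5 libraries in order. Whole 1 and whole 2 gave 11.9% and 11.7%. At least 3 members were found in 1.96% of cells at E11.5 and 80.0% in the E16.5 proximal library. In epithelial-like cells of the E16.5 proximal library, which should lack most members, 42.7% had at least 1 member and 9.89% at least 3, at a median depth of 37491 UMIs before thinning against 17912 in the other cells. For single members the thinned shares went from 16.9% of cells at E11.5 to 80.4% in the E16.5 proximal library for *Dcn* (31.9% and 91.8% unthinned) and from 0.474% to 50.1% for *Aspn* (0.885% and 69.2% unthinned). *Omd* was found in 3 of 3165 E11.5 cells unthinned and in 0 at 3000 UMIs. A count of 0 allows a share of up to 0.0948% (3 cells) with a UMI at that depth, or 0.116% by the exact interval. In the E16.5 proximal library *Omd* was found in 1.76% of thinned cells.

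Classes parted before E16.5. At E13.5, fibrogenic progenitor-like cells (3264 cells) and perichondrial-like cells (1425) parted along the family. The former had *Dcn* at 757 CPM, *Lum* at 337 and *Kera* at 217. The latter had 64.5, 104 and 20.3 CPM of these genes. In turn *Fmod*, *Epyc* and *Prelp* were at 54.3, 4.86 and 1.5 CPM in the fibrogenic progenitor-like cells and at 103.6, 38.2 and 14.5 in the perichondrial-like cells. *Bgn* (74.0 and 105.7 CPM) and *Ogn* (143 and 128) differed less between them. A small dermal fibroblast-like class (249 cells) was above both for *Lum*, at 1610 CPM, *Dcn*, at 912, *Kera*, at 375, and *Bgn*, at 128, and had no UMI of *Prelp*. No chondrocyte-like class was named at E13.5, although the 10 chondrocyte markers summed to 1414 CPM over that library. Whether the perichondrial-like class holds cartilage cells was not tested.

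At E14.5 a single class, all but 2 of whose 1117 cells came from a cluster led by *Six2*, *Mia* and *Matn4*, was highest of the 6 named classes for 7 members. By its markers it was tenocyte-like, with 5 tenocyte markers, but it also carried 5 chondrocyte markers, so tendon and cartilage genes were not separated in it. The count of 7 is a description only, since the share of all genes highest in this class is not given here. *Kera* was at 241 CPM in it (233 to 248), *Fmod* at 186 (180 to 193), *Ogn* at 631, *Bgn* at 479, *Epyc* at 56.0 (52.6 to 59.5) and *Prelp* at 11.9. The class was 13.3% of the cells and gave 24.8% of the library's *Kera*, 53.45% of its *Fmod* and 64.1% of its *Epyc* UMIs. *Omd* was at 4.67 CPM in it and at 4.34 in fibrogenic progenitor-like cells, with overlapping intervals (3.72 to 5.78 and 3.75 to 4.98). *Aspn* was highest in the fibrogenic progenitor-like cells at 280 CPM, also within the counting error of the tenocyte-like 274. The dermal fibroblast-like class led for *Lum* (1687 CPM) and *Dcn* (1815). Epithelial-like cells (65) had 40.0 CPM of *Lum*, 20.7 of *Kera* and no UMI of *Epyc*, *Omd* or *Prelp*.

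In the E16.5 proximal library the family divided by tissue type, and each of 4 skeletal and connective tissue classes had its own leading members. Among the named classes, chondrocyte-like cells (977) led for *Epyc*, *Fmod*, *Prelp*, *Bgn* and *Omd*, tenocyte-like cells (721) for *Kera* and *Ogn*, fibroblast-like cells (2244) for *Dcn* and *Aspn*, and dermal fibroblast-like cells (1155) for *Lum*. A cluster left unnamed (number 17, 399 cells), with *Alpl* and *Dlx6* among its leading genes, stood above all of them for *Omd*, *Aspn* and *Bgn*. The neighbours *Prelp* and *Fmod* on chromosome 1 thus peaked in the same class and *Aspn* and *Omd* on chromosome 13 in the same cluster, apart from their neighbour *Ogn*, while the 4 genes of the chromosome 10 row led in 4 different classes. Among named classes alone *Aspn* and *Omd* led in different ones, also with random seed 2 and with cells named by at least 3 markers. In the distal library neither pair peaked together, but this depended on the clustering, since with random seed 2 *Fmod* and *Prelp* shared a chondrocyte-like class and with that library clustered on its own *Aspn* and *Omd* shared an osteoblast-like one. These are descriptions of single libraries, with no test and without the share of all genes that led in each class.

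*Epyc* was the sharpest. It was at 1151 CPM in chondrocyte-like cells (1135 to 1166) and found in 54.4% of them at 3000 UMIs. These cells were 8.79% of the library and gave 77.6% of its *Epyc* UMIs. The mitotic-like class was at 113 CPM, and within it a cluster led by *Scx*, *Cenpf* and *Plk1* (278 cells), which had 10 of the chondrocyte markers beside 10 mitotic ones, at 583. The other named classes lay between 2.34 and 10.3 CPM. Epithelial-like cells were at 7.02, above dermal fibroblast-like (2.34), pericyte-like (5.44) and tenocyte-like cells (6.05). Their level was therefore no lower limit for the other classes, and how much of it came from free RNA was not tested.

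*Fmod* was at 584 CPM (573 to 596) in chondrocyte-like cells and at 353 (343 to 364) in tenocyte-like cells. These gave 53.8% and 21.2% of its UMIs. *Prelp* had an unlike pair of classes, chondrocyte-like at 128 CPM (123 to 134) and fibroblast-like at 36.4 (34.6 to 38.2), with tenocyte-like cells at only 5.62. *Kera* in tenocyte-like cells, at 358 CPM (347 to 369), stood against 91.4 in fibroblast-like, 23.3 in chondrocyte-like and 14.04 in dermal fibroblast-like cells. Only 38.8% of tenocyte-like cells had a *Kera* UMI at 3000 UMIs, against 86.8% for *Ogn*.

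*Omd*, low everywhere else, was at 97.9 CPM (90.3 to 106) in the unnamed cluster with *Alpl* and *Dlx6*, with chondrocyte-like cells next at 29.1. *Alpl* encodes the phosphatase of mineralizing cells, and the cluster had 2 osteoblast markers, too few for a name. It was 3.59% of the library and gave 35.2% of its *Omd* UMIs. In it *Aspn* was at 1891 CPM and *Bgn* at 1398, while *Dcn* was at 460, lower than in any named class other than epithelial-like cells. How far this cluster counted as bone depended on the settings. At resolution 2 and with random seed 1, 209 of the cells came out as osteoblast-like, with *Omd* at 179.5 CPM, *Aspn* at 2485, *Bgn* at 1890 and *Dcn* at 409, and the library clustered on its own gave 224 such cells with *Omd* at 169 CPM, *Aspn* at 2418 and *Bgn* at 1824. In these 3 settings the osteoblast-like class was the highest for all 3 genes, and with random seed 2 there was no such class. *Dcn* was highest in fibroblast-like cells at 4333 CPM, and *Lum* in dermal fibroblast-like cells at 2159 and lowest, outside epithelial-like cells, in tenocyte-like cells at 235. Tenocyte-like cells were thus the lowest of these classes for one class II gene and the highest for another.

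**Figure D3:**
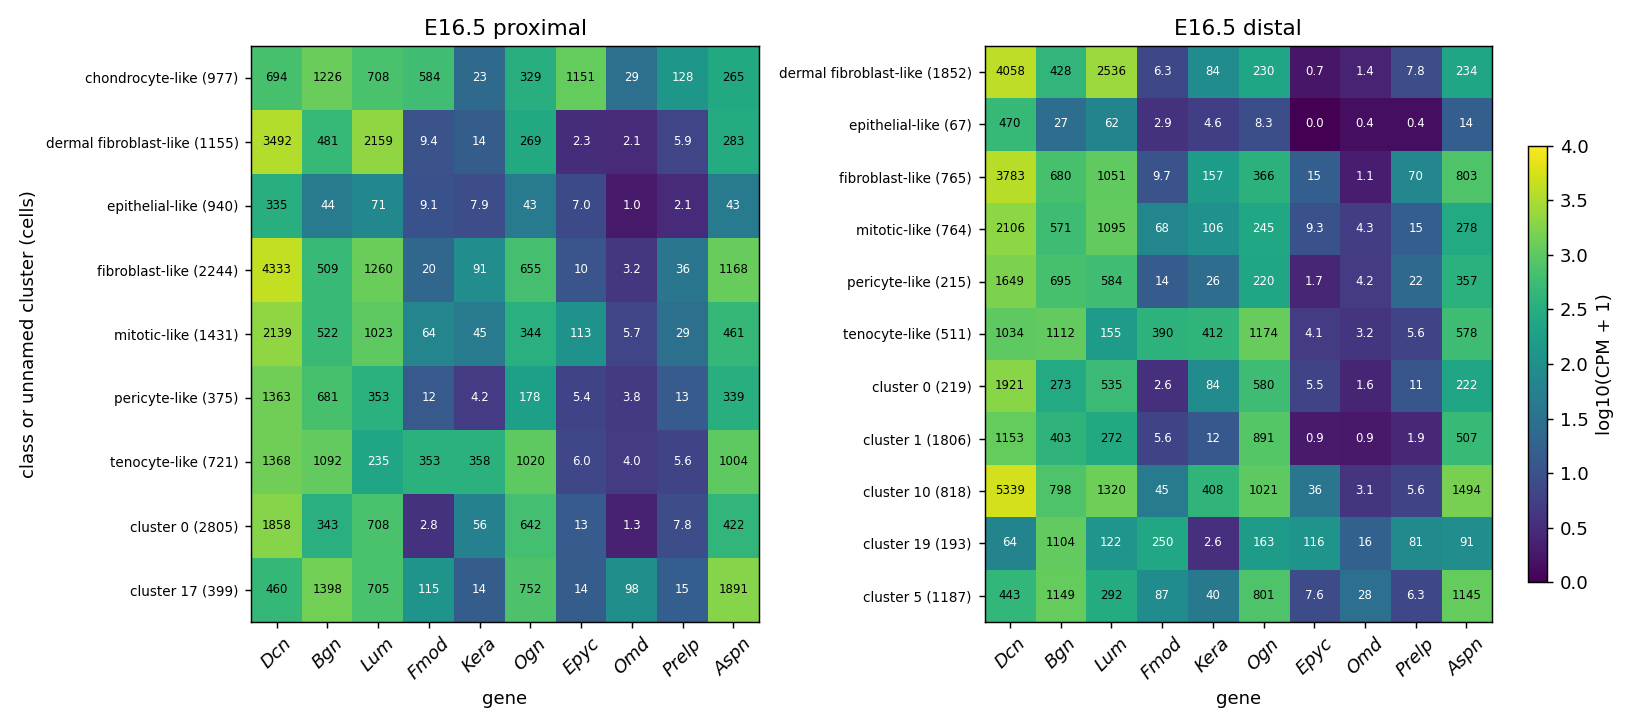
CPM of each member (columns, printed in each field, colour on a log10 scale of CPM + 1) in named classes and unnamed clusters, by number, with at least 50 cells (rows, with cell numbers) of the E16.5 proximal and distal libraries, cluster 0 being led by *5330417C22Rik*, *Acta1* and *Tnnc2* and cluster 1 by *Ephb1*, *Nkain3* and *Mgat4c*. *Epyc* at 1151 CPM in proximal chondrocyte-like cells, *Omd* at 97.9 in proximal cluster 17 and *Kera* at 358 in proximal tenocyte-like cells stand out in their columns, while distal *Kera* is at 412 in tenocyte-like cells and 408 in cluster 10.

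Between the E16.5 segments the family was much alike in total, at 4777 CPM proximally and 5462 distally. Only *Epyc* passed a ratio of 2, 114 CPM proximally against 10.5 distally, 10.9-fold lower (10.3 to 11.4). Of all genes at 10 CPM or more 3.89% were lower by that ratio and 8.04% passed in either direction. The summed level of the chondrocyte markers was 4499 CPM in the proximal and 1210 in the distal library, and the epithelial markers were at 6675 and 836. Other lists were higher distally, such as distal limb bud at 20.8 and 156 CPM, perichondrial at 152 and 363 and dermal fibroblast at 597 and 990. Their part was not tested. *Kera* came close to a ratio of 2, at 60.9 and 120 CPM (1.97-fold higher distally, 1.93 to 2.01). *Fmod* was 1.47-fold (1.44 to 1.51) and *Prelp* 1.55-fold (1.48 to 1.62) lower distally. Without epithelial- and chondrocyte-like cells the log2 ratio of *Fmod* turned from -0.55 to 0.21, that of *Dcn* from 0.21 to -0.07 and that of *Aspn* from 0.08 to -0.20. That of *Kera* went from 0.97 to 0.70 and that of *Epyc* from -3.32 to -1.51. That setting leaves out 977 proximal but only 46 distal chondrocyte-like cells, and it keeps an unnamed distal cluster with 10 chondrocyte markers. TMM scaling lowered the ratios by up to 0.15, and under it *Aspn* also turned, to -0.07.

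The distal library held only 46 chondrocyte-like cells. A distal cluster led by *Cytl1*, *Sema3e* and *Cmtm5* (number 19, 193 cells), with 10 of the chondrocyte markers but left unnamed because genes of another class stood ahead among its top 10, had *Epyc* at 116 CPM (105 to 128), *Fmod* at 250, *Prelp* at 80.8 and *Bgn* at 1104. Its *Epyc* level was far below the 1151 CPM of the proximal chondrocyte-like cells, and its *Fmod*, *Prelp* and *Bgn* less so. It was 2.28% of the distal cells and gave 23.7% of their *Epyc* UMIs, and a cluster led by *Grin2a*, *Dkk2* and *Fhod3* (number 10, 818 cells) gave 32.2% at 35.6 CPM. The mitotic cluster led by *Scx*, *Cenpf* and *Plk1* was present in both segments, with *Epyc* at 583 CPM (565 to 601) in 278 proximal and 14.6 (11.5 to 18.2) in 195 distal cells. Over all mitotic-like cells *Epyc* was 12.1-fold lower distally (10.5 to 14.04), where 1.85% of genes were at least 2-fold lower. *Omd* was highest distally in the unnamed cluster led by *Msx1* and *Npnt* (number 5, 1187 cells), at 28.1 CPM (25.6 to 30.7), and this cluster, 14.05% of the cells, gave 53.2% of the distal *Omd* UMIs. As in the proximal *Alpl* cluster, *Aspn* (1145 CPM) and *Bgn* (1149) were high there and *Dcn* (443) low. With the distal library clustered on its own, 331 cells came out as osteoblast-like, with *Omd* at 94.7 CPM, *Aspn* at 1955 and *Bgn* at 919, but with *Dcn* at 965. Resolution 2 and random seed 1 gave only 4 such distal cells and random seed 2 none. Among named classes distal *Omd* was then highest in chondrocyte-like cells at resolution 2 and with random seed 2. With random seed 1 it was highest in distal limb bud-like cells.

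*Kera* was higher distally in each of the 5 named classes compared, and least so in tenocyte-like cells. Tenocyte-like cells, 1 cluster in both segments, had 358 CPM proximally and 412 distally (ratio 1.15, 1.10 to 1.20). Mitotic-like cells had 44.6 and 106 CPM (2.37, 2.23 to 2.53), where 3.93% of all genes were at least 2-fold higher distally. Pericyte-like cells had 4.17 and 26.0 CPM, but the first lies below the 7.86 CPM of proximal epithelial-like cells, so that no fold is read from it. Dermal fibroblast-like cells went from 14.04 to 83.8 CPM (5.96, 5.26 to 6.79) against 4.03% of all genes. The first of these values is less than 2-fold above the 7.86 CPM of proximal epithelial-like cells, so the size of this fold is uncertain. Fibroblast-like cells went from 91.4 to 157 (1.71, 1.63 to 1.80), short of a ratio of 2 that 6% of genes passed. Different clusters make up these last classes in the segments. In the dermal fibroblast-like cluster present in both (led by *Ccl7* and *Dpep1*, 325 and 553 cells) *Kera* was at 33.3 and 214 CPM, and in the fibroblast-like cluster present in both (led by *Sfrp4*, 1674 and 87 cells) at 114 and 256. Distal epithelial-like cells held 4.56 CPM. The distal cluster led by *Grin2a* was at 408 CPM (398 to 419), level with the tenocyte-like cells, and gave 32.3% of the distal *Kera* UMIs.

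**Figure D4:**
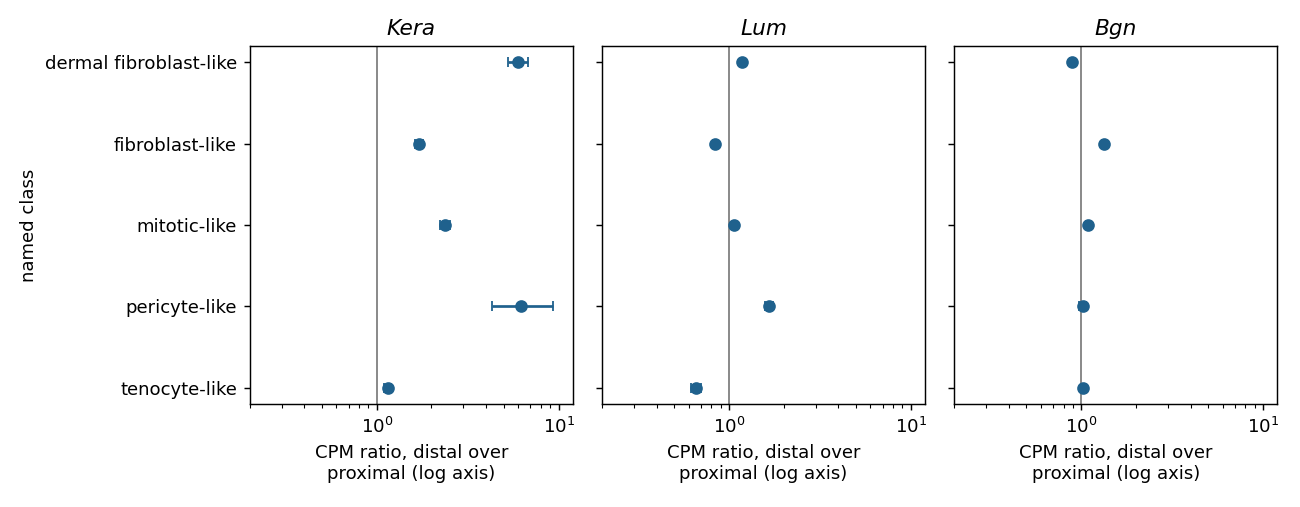
Ratio of distal to proximal CPM (log axis, with exact conditional 95% intervals) for *Kera*, *Lum* and *Bgn* in the 5 named classes with at least 50 cells in both E16.5 libraries, leaving out epithelial-like cells. For *Kera* the ratio is 1.71 to 5.96 in 3 classes and 1.15 in tenocyte-like cells. Its pericyte-like point rests on a proximal value below that of epithelial-like cells. The 5.96 of dermal fibroblast-like cells rests on a proximal value less than 2-fold above that level. For *Lum* the ratio runs from 0.657 to 1.66 and for *Bgn* from 0.890 to 1.34.

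Within the tenocyte-like cluster the other members moved less than 2-fold between segments. *Aspn* was 1.74-fold lower distally (1.68 to 1.79), at 578 against 1004 CPM, and *Lum* 1.52-fold lower (1.43 to 1.62), at 155 against 235. *Fmod* (353 and 390 CPM) and *Ogn* (1020 and 1174) were slightly higher distally and *Bgn* (1092 and 1112) was level.

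In epithelial-like cells of the proximal library *Dcn* stood apart from the other members. The cluster led by *Calm4*, *Krt1* and *Lor* (600 cells) had *Dcn* at 159 CPM, 2.501 UMIs for each *Lum* UMI, close to the 2.48 of the library as a whole. The cluster led by *Krt14*, *Krt5* and *Krt15* (340 cells), basal keratin genes, had *Dcn* at 887 CPM, 9.24 for each *Lum* UMI, with *Lum* at 96.0 CPM. At 3000 UMIs, *Dcn* was found in 69.1% of the *Krt14* cluster (63.9 to 73.99) and 14.8% of the *Krt1* cluster (12.1 to 17.9). The other 9 members were found in at most 12.9% of the *Krt14* cluster, and *Bgn*, *Ogn* and *Aspn* stood at 0.767, 0.462 and 0.489 UMIs for each *Lum* UMI, near the 0.608, 0.534 and 0.656 of the library. *Col1a1*, a fibroblast collagen, was at 5.49 per *Lum* UMI in this cluster and 6.58 in the library. Whether this *Dcn* comes from cells that share a droplet was not tested.

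**Figure D5:**
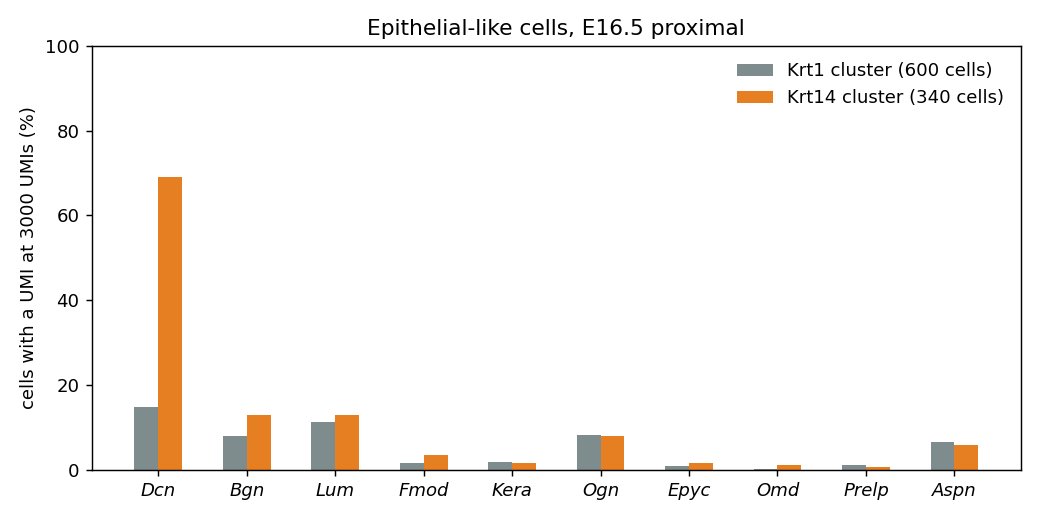
Share of cells with a UMI of each member, each cell thinned to 3000 UMIs, in the *Krt1* cluster (number 12, 600 cells) and the *Krt14* cluster (number 18, 340 cells) of epithelial-like cells of the E16.5 proximal library. *Dcn* stands at 14.8% and 69.1%, and every other member is at or below 12.9% in both.

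Among other genes of the pathway, the fibril collagens kept pace with the family. From E11.5 to E16.5 proximal, where 12.9% of genes at 10 CPM or more were at least 2-fold higher and 41.6% passed in either direction, 10 of 10 listed collagens were higher by that ratio, with a median log2 ratio of 4.76, led by *Col14a1* (1.21 to 492 CPM), a collagen that decorates fibril surfaces. Of the 9 listed processing genes 5 reached 10 CPM and 4 were higher, led by the cross-linking enzyme *Lox* (6.16 to 149 CPM). The enzymes that build the sugar chains moved in part. Each count here is over the listed genes that reached 10 CPM, which were 10 of 16 chondroitin and dermatan sulfate enzymes and 3 of 8 keratan sulfate enzymes. Of the linker enzymes 1 of 7 was higher (*Xylt1*, 3.08 to 12.5 CPM). Of the chondroitin and dermatan sulfate enzymes it was 6 of 10, led by *Csgalnact1* (3.78 to 15.6), and of the keratan sulfate enzymes 1 of 3, *B4galt1* (20.6 to 57.2). *Csgalnact1* did not rise throughout, since it was at 38.5 CPM at E13.5 and 34.7 at E14.5. Of the genes for sulfate donor and import 2 of 4 were higher, led by *Papss2* (3.62 to 25.9), and of the related repeat proteins 3 of 3, led by *Chad* (0.0317 to 19.9). Of 7 growth factors and receptors 4 were higher, led by *Tgfb1* (2.76 to 12.2), and 2 lower, led by *Igf1r* (133 to 57.2). At E11.5, 8 of 10 collagens were higher in sorted than in whole limb cells by edgeR, led by *Col12a1* (83.2 against 17.4 and 17.2 CPM), and *Col5a2* was lower (19 against 23.4 and 24.8). The related *Podn* was higher (3.96 against 0.408 and 0.297), as were *Csgalnact1*, *Pxylp1*, *B3gnt7*, *Tll1* and *Egfr*, the highest of their lists, while *Pcolce2* was at 3.03 against 9.42 and 8.93, the lowest of the processing genes. Against the 26.8% of all genes called higher and 26.6% called lower, edgeR called 3 of 5 related repeat proteins higher and none lower. It called 4 of 7 linker enzymes higher and 1 lower (*Xylt1*, 3.10 against 4.01 and 4.05 CPM). Of 15 chondroitin and dermatan sulfate enzymes edgeR called 5 higher and none lower, and of 7 keratan sulfate enzymes 1 higher and 1 lower (*Chst2*, 14.4 against 20.5 and 20.3 CPM). The same test called 4 of 8 processing genes higher and 1 lower, and 4 of 9 growth factors and receptors higher and none lower. Of 4 genes for sulfate donor and import it called none higher and 1 lower (*Impad1*, 57.4 against 65.7 and 70.5 CPM).

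Over 30 groups, each a named class of at least 50 cells in 1 sorted library, the genes whose log2(CPM + 1) profile was most like that of a member were ranked by Pearson's r among 6130 genes, as a description, since groups share libraries and depth. *Dcn* was closest to *Cd34* (r = 0.93), *S100a6* and *Rnase4*, *Bgn* to *Thbs2* (0.96), *Ppib* and *Sparc*, and *Aspn* to *Thbs2* (0.94), *Abi3bp* and *Itih5*. *Fmod* was closest to the cartilage collagens *Col11a1* (0.90) and *Col11a2* and to *Pcolce2*. *Kera* was closest to *Chodl* (0.85), *Col13a1* and *Kctd12*, and *Lum* to *Svep1* (0.89), *AW551984* and *Crabp1*. *Epyc* was closest to *Matn3* (0.88), a cartilage matrilin, *Foxa3* and *Ncmap*, *Omd* to *Il17d* (0.85), *1500015O10Rik* and *App*, *Prelp* to *Cspg4* (0.87), *Trim47* and *Slc29a1*, and *Ogn* to *Selm* (0.93), *Ikbip* and *Kdelr3*. Among the members the closest pairs were *Aspn* with *Bgn* (r = 0.88), *Bgn* with *Ogn* (0.86) and, at 0.82 each, *Dcn* with *Lum* and *Aspn* with *Ogn*. Of the genes named above, *Cd34*, *Pcolce2*, *Col11a2*, *Crabp1* and *Cspg4* were among the markers that named the classes. Their rank is therefore not independent of the groups.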

How the data were processed

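Single cells of pooled mouse forelimbs were captured with 10x 3′ kits. The files as deposited give unnormalized UMI counts for every gene and barcode, made by the authors with Cell Ranger count on a modified mm10 reference (3.0.2 for 5 sorted libraries and 6.0.1 for E16.5 distal per the file headers, no version for whole 1 and whole 2). Groups came from GEO's labels, and nothing in them says that whole 1 and whole 2 came from separate litters, so their spread may be technical.

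The filter on cells asked for 3000 UMIs or more, as in the study, and for 10% mitochondrial UMIs or less. Time course, segments and E11.5 libraries were clustered separately (scanpy 1.11.5, 2000 variable genes, 50 components, 25 neighbours, Leiden resolution 1) without the 10 members. Components were computed in double precision and rounded, a change made after earlier results were seen so that the clusters repeat exactly. Each cluster was named for the class most of whose markers had a log2 fold of 1 or more. No name was given with under 3 markers, with another class ahead among the top 10 genes, or with muscle fibre genes in the lead, the last rule being added after the clusters were seen. Scrublet called at most 0.264% of cells and was taken not to have worked, so doublets stayed in and the 6% of cells with the highest scores were left out as an alternative. CPM are UMIs summed over cells, scaled to 1000000. Single libraries were compared by ratios of CPM + 1 against genes at 10 CPM or more in either library. The E11.5 test was edgeR 4.0.16 (R 4.3.3, TMM, filterByExpr, adjusted p under 0.05), SE being the log2 fold change over the root of F, with DESeq2 1.42.0 and limma 3.58.1 as alternatives. On simulated data of this comparison with 200 of 15063 genes changed 4-fold, edgeR recovered 88.5% with 8 false calls, limma-voom 91% with 12 and DESeq2 72.5% with 0. Simulated libraries took their spread from the fit to these data, so whether the sorted library varies like the others was not tested. Far fewer genes were changed than the 53.3% that the real test called.

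All 10 members are named. Of each pathway list the largest increase and decrease past the threshold are named for the E11.5 test and for E11.5 to E16.5 proximal. Those of the single steps and of the E16.5 segments are not named. Of each member the 3 genes most like it are named. Members and lists were chosen with earlier results of these data known.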

Additional observations from a re-analysis of the deposited data

How the results depend on the processing

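Counts of members past a threshold, in either direction together, kept within 1.5 times of the reported count under every alternative run, except for the highest class in the E16.5 distal library, which of 10 members 5 kept at resolution 2, 4 with random seed 1, 3 with random seed 2, 4 after a clustering of that library alone and 4 with cells named by at least 3 markers. In the proximal library 7 members kept it at resolution 2, with random seed 1 and after a clustering of its own, where *Omd*, *Aspn* and *Bgn* moved to an osteoblast-like class, and 9 with random seed 2 and under the marker rule, where *Aspn* moved. Class borders thus moved with the settings of the clustering, and with the numerical precision in earlier runs, so values by class are less firm than those by library. The 7 members called at E11.5 numbered 7 under each tool, scaling and cell set, while calls over all genes fell from 8035 to 4883 with DESeq2 and to 4124 with no filter on low counts, and were 6514 with limma-voom. Leaving out whole 1 or whole 2 leaves 1 library against 1 and no test. No member past a ratio of 2 changed direction, but from E14.5 to E16.5 proximal *Kera* lost that ratio and *Fmod* gained it with TMM scaling, at 3000 UMIs per cell and outside epithelial-like clusters. Of 509 values of single members under alternatives, 142 moved by more than their error and the cause was not tested. Removal of doublets called by scrublet was not run, since under 0.5% were called, and the alternatives without high doublet scores, without chondrocyte-like cells or with other seeds were chosen after seeing the data. Low depth limits *Omd* and *Prelp* before E13.5. No paired analysis was possible because each sorted stage or segment was 1 library. The study split E16.5 forelimb pairs into a proximal and a distal part. Whether both deposited libraries came from the same embryos is not stated.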
